A study of Mus musculus with 60 samples.

Results

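The CC chemokine genes Ccl2, Ccl3, Ccl4, Ccl5, Ccl7, Ccl9 and Ccl12 and the receptor-like gene Ccrl2 were followed in sorted glia of aging mice. These 8 genes were chosen by name, with earlier results of these data known, as a list of family members out of 35999 Ensembl mouse genes. Microglia and astrocytes were sorted from whole brains of male mice at 2, 4, 6, 9 and 12 months of age. The wild-type (WT) groups were littermates of the strain labelled C57BL/6. The AD groups were labelled APPswe/PS1-delta=E9, a double-transgenic line that carries mutant amyloid precursor protein and mutant presenilin genes and develops amyloid plaques. All brains were perfused, stripped of meninges, digested with enzymes and passed through flow sorting. Microglia were the cells with low-to-intermediate CD45 and with CD11b, and astrocytes those with the surface antigen ACSA2. The labels name 60 libraries, 3 for each of 20 groups of genotype, age and cell type, each from the brain of a single mouse by the study's methods.

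The deposited table holds 1 value per gene and group in FPKM, a fragment count corrected for gene length and for library depth. There is therefore no spread between libraries, no test and no p-value for any value given here, and "higher" or "lower" compares group values only. The lowest FPKM values fell on steps made by single fragments, and these steps gave 13.1 to 20.3 M (mega) fragments per microglia library and 17.8 to 22.8 M per astrocyte library. By these steps the microglia groups WT 12 months and AD 4 months each hold 2 libraries, and the other 18 groups 3. All 6 microglia markers checked were present in every microglia group, their summed level being 5933 to 13718 FPKM, against 5.52 to 11.6 in astrocytes. Of markers of other cells in microglia, 7 neutrophil genes summed to 17.9 to 2690 FPKM, with AD 9 months and AD 12 months highest. Sums of 6 endothelial genes (4.19 to 146), 6 mural cell genes (5.01 to 202) and 6 astrocyte genes (2.70 to 30.7) were each highest in AD 4 months.

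Chemokines are small secreted proteins that draw leukocytes along a gradient through receptors of the G protein-coupled type. In the CC family the first cysteines of the mature protein are adjacent. In the brain, microglia and the macrophages of its borders are known sources of several of them, and their transcripts are induced quickly when such cells are disturbed. Ccl3 and Ccl4 are the macrophage inflammatory proteins, Ccl5 attracts T cells in particular, and Ccl9 is a ligand found in rodents. Ccl3, Ccl5 and Ccl9 act on Ccr1. Ccl2, Ccl7 and Ccl12 are monocyte chemoattractants that act on Ccr2, Ccl12 being known from the mouse. Ccrl2 binds the attractant chemerin without signaling and presents it to the chemerin receptor Cmklr1.

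Of the 8 genes, 4 matched the promoter table used here, which comes from RefSeq and the mouse build GRCm38.p6, with 6 promoters in all. The 250 bases before the start site are shown for 3 ligands that differed in their course over age in WT microglia, Ccl3 and Ccl12 being higher at every later age and Ccl9 not. They are printed 5′ to 3′ on the strand of the gene. Capitals mark matches to an NF-kB motif (GGG, any 2 bases, then TTTCC) and to an AP-1 motif (TGANTCA, N being any base), searched on both strands. The motifs do not overlap in these promoters.
Ccl3, chr11:83649379-83649628, minus strand: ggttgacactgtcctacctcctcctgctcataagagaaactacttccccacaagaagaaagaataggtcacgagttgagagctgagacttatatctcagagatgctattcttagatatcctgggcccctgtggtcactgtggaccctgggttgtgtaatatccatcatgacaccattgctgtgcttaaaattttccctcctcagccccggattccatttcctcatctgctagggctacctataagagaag
Ccl12, chr11:82101595-82101844, plus strand: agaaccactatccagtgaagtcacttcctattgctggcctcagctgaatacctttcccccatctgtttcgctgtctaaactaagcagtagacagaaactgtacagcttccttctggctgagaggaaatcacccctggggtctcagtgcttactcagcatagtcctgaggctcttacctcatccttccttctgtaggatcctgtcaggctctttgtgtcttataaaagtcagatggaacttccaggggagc
Ccl9, chr11:83578637-83578886, minus strand: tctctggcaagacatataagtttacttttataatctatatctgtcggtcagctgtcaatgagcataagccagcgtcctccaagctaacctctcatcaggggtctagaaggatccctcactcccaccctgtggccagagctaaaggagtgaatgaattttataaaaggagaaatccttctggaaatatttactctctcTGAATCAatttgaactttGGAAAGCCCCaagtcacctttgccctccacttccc
Only the Ccl9 sequence had a match, the NF-kB match starting 35 and the AP-1 match 53 bases before the start site. The NF-kB letters stand in 1.41% and the AP-1 letters in 6.75% of all 32851 promoters of this length. The 3 promoters of Ccrl2, on chromosome 9, had 0 matches to either motif. A match of letters is a description of the sequence and was not tied to binding of any factor.

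In microglia 2 of the 7 listed ligands held most of their summed FPKM. Ccl6, a CC ligand outside the list, had 86.1 to 754 FPKM and is not in the order that follows. Ccl4 (ENSMUSG00000018930) ranked 15 to 37 from the top of all genes over the 10 microglia groups and Ccl3 (ENSMUSG00000000982) 14 to 49. Together they made up 88.6% to 94.5% of the summed FPKM of the 7 ligands. Among the listed genes the order below them in the median over microglia groups was Ccl12 (255 FPKM), Ccrl2 (120.4), Ccl2 (40.6), Ccl9 (40.5), Ccl7 (10.8) and Ccl5 (2.24). Which neighbors in this order differ beyond the spread of libraries cannot be said without values per library. The ranges over groups of all neighbors in the order overlapped, except those of Ccl3 and Ccl12. The 7 ligands held 0.484% of the summed FPKM in WT microglia at 2 months, the lowest of the 10 groups, and 1.71% in AD microglia at 9 months, the highest. In sorted bulk cells, fewer cells that make a transcript and less transcript per cell cannot be told apart.

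Ccl3, Ccl4 and Ccl5 were lowest in WT microglia at 2 months. Ccl3 was 780.5, 1461, 1764, 2199 and 1797 FPKM in WT microglia at 2, 4, 6, 9 and 12 months, and 1269, 1775, 1084, 2909 and 2141 FPKM in AD microglia at the same ages. Ccl4 was 1177, 2585, 3179, 3015 and 2498 FPKM in WT and 1816, 3052, 1746, 2796 and 3682 FPKM in AD microglia. For both genes the WT 2-month value lay below all 9 other microglia values. AD 6 months was the lowest AD group for Ccl3, while for Ccl4 AD 2 and AD 6 months were about level, their order turning once each group was divided by a size factor. The ratio of Ccl3 to Ccl4 was 0.555 to 0.729 in 9 groups and 1.04 in AD microglia at 9 months, where Ccl3 but not Ccl4 was at its highest. That group also had the highest sums of 7 neutrophil markers (2690 FPKM) and 5 monocyte markers (50.4 FPKM). Of the monocyte sum Chil3 made 42.8 FPKM. Ly6c2 (3.25) was also at its highest there, while Ccr2 (1.37), Plac8 (2.00) and Ms4a4c (1.05) were not. The part of such cells in the Ccl3 level was not tested. Ccl5 (ENSMUSG00000035042), far less abundant, was 1.17, 2.41, 2.75, 2.16 and 3.15 FPKM in WT and 1.23, 1.33, 1.75, 2.32 and 5.05 FPKM in AD microglia. Both 2-month groups were the lowest for Ccl5 and AD 12 months the highest.

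The 3 monocyte chemoattractants peaked at 6 months in WT. Ccl2 (ENSMUSG00000035385) was 21.4, 46.4, 79.0, 44.4 and 40.9 FPKM in WT microglia from 2 to 12 months, and 23.1, 40.3, 21.3, 41.8 and 32.4 FPKM in AD microglia. Ccl7 (ENSMUSG00000035373) was 6.48, 11.8, 23.2, 10.9 and 10.7 FPKM in WT and 5.04, 12.5, 6.65, 8.16 and 15.0 FPKM in AD microglia. At 6 months both genes were highest of all groups in WT, while Ccl2 in AD lay at the level of the 2-month groups. Ccl12 (ENSMUSG00000035352) was 132, 209, 445, 294 and 238 FPKM in WT and 175, 187, 295, 271 and 489 FPKM in AD microglia. It parted from Ccl2 in AD: the ratio of Ccl2 to Ccl12 was 0.0721 at 6 and 0.0663 at 12 months in AD, and 0.132 to 0.221 in the other 8 microglia groups.

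Ccl9 (ENSMUSG00000019122) took another course. It was 46.5, 60.3, 33.4, 40.6 and 12.2 FPKM in WT microglia and 48.1, 40.5, 39.4, 30.7 and 62.0 FPKM in AD microglia. The lowest and the highest of the 10 values were thus both at 12 months, in WT and in AD. Ccrl2 (ENSMUSG00000043953), the chemerin-binding receptor, was 40.6, 109, 132, 182 and 145 FPKM in WT and 63.8, 76.8, 66.0, 143 and 141 FPKM in AD microglia. Its level in AD exceeded that in WT at 2 months alone.

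**Figure D1:**
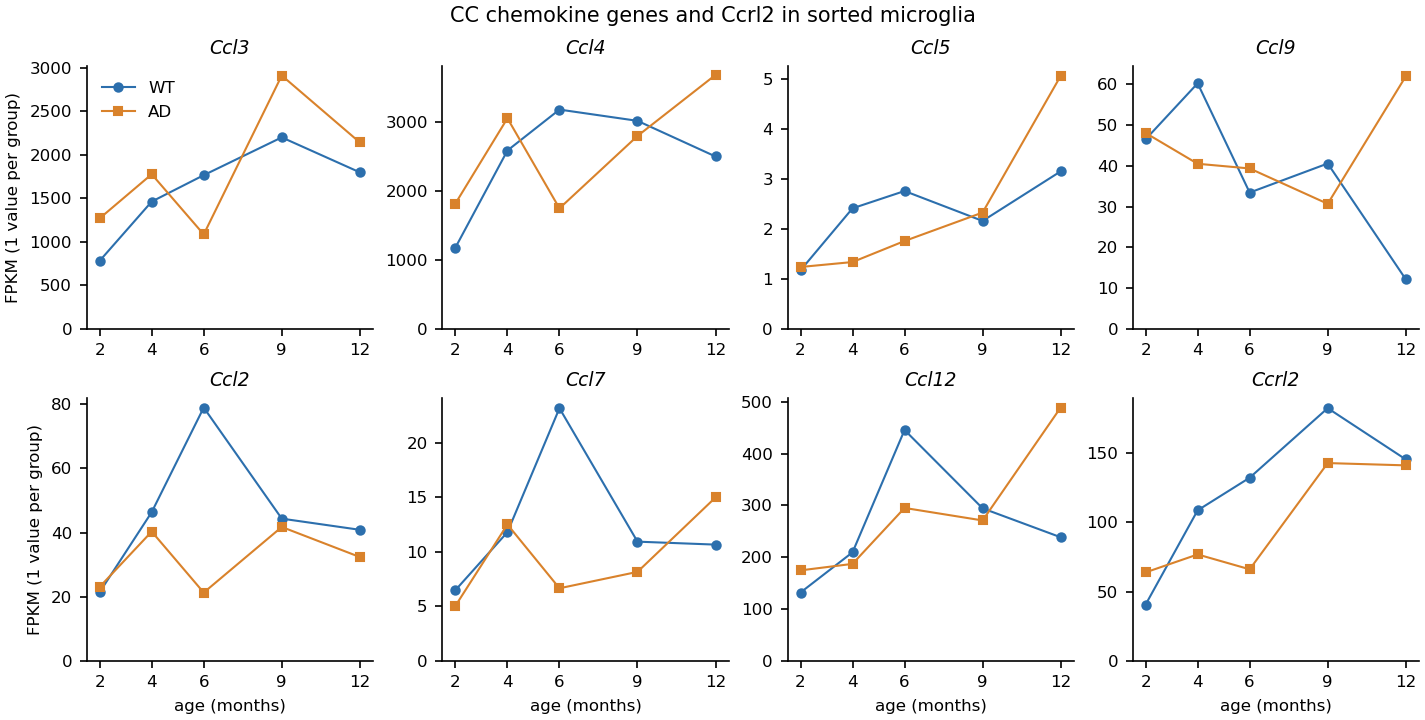
FPKM in microglia (y axis, from 0, 1 deposited value per group) against age in months (x axis) for the 7 CC ligands and Ccrl2, WT as circles and AD as squares. In WT every gene but Ccl9 is lowest at 2 months, Ccl2, Ccl7 and Ccl12 peak at 6 months (79.0, 23.2 and 445 FPKM), and AD at 6 months lies below WT for every gene but Ccl9.

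To compare ages, FPKM was divided by a size factor per group, 0.1 was added and log2 was taken. A gene was kept where it reached 0.5 FPKM in either group, and was called higher or lower where log2 values differed by over 0.5, the fold part of the study's own threshold. In WT microglia 7 of the 8 genes, all but Ccl9, were higher at 4, at 6, at 9 and at 12 months than at 2 months. Of all genes kept, 12.9% were higher at 4, 26.9% at 6, 13.8% at 9 and 15.3% at 12 months. The median log2 fold change of the 8 genes was 0.88, 1.64, 1.09 and 1.01 at these ages, against -0.06, 0.11, 0.0043 and 0.0092 over all genes kept. Past the threshold at all 4 later ages were 7 of the 8 genes and 1.85% of 13600 genes. The list was set with earlier results of these data known, so this contrast does not stand for the CC family. Outside the list, Ccl6 had log2 values of -0.18, 0.37, 0.65 and -0.76 at 4, 6, 9 and 12 months. Those of Ccl24 were -0.68, 0.58, -0.17 and -0.39. Ccl8, kept at 6 and 9 months alone, was higher there (4.57 and 3.74). The 4 comparisons share the 2-month group and are not independent of each other.

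Ccrl2 had the largest fold changes of the 8 genes at 4, 9 and 12 months in WT microglia, with log2 values of 1.35, 2.15 and 1.84, and Ccl2 the largest at 6 months, with 1.95. The values of Ccl3 were 0.83, 1.25, 1.48 and 1.20, a peak at 9 months. For Ccl12 they were 0.60, 1.82, 1.15 and 0.86, of which that at 4 months lay closest to the threshold. Ccl9 was lower by over 0.5 in 1 of the 4 comparisons, at 12 months, by a log2 value of -1.93, where 11.3% of genes were lower. That group is one of the 2 with the steps of 2 libraries.

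In AD microglia the same comparison gave fewer genes before 9 months. At 4 months Ccl2, Ccl4 and Ccl7 were higher than at 2 months (0.77, 0.71 and 1.26 on the log2 scale), at a background of 22.4% of genes. At 6 months Ccl5 and Ccl12 were higher (0.54 and 0.82), at a background of 22.8%, so that the count of 2 in 8 was near that of all genes. The call of Ccl5 was lost in 4 of 6 other settings of scaling, filter, pseudocount and length trend (0.342 to 0.474). Of these 6, no filter leaves fold changes as they are and could not lose a call. All but Ccl9 were higher at 9 months, against 23.4% of genes, and at 12 months, against 24.6%. At 12 months the call of Ccl2 (0.56) was lost in 4 of these 6 settings (0.187 to 0.488) and that of Ccl3 (0.82) with quantile normalization (0.184). The median log2 fold change of the 8 genes was 0.34, 0.06, 0.70 and 1.15 from 4 to 12 months. Ccl9 was lower at 9 months (-0.72), as were 14.1% of genes. None of the 8 was higher at all 4 later ages in AD, where 2.24% of 13773 genes were. Without 6 months there were 3, Ccl2, Ccl4 and Ccl7, and without 4 months, the AD group of 2 libraries, 2, Ccl5 and Ccl12. Ccl5 reached the largest fold change of these comparisons in AD, 2.02 at 12 months.

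Other genes moved beside these values. The summed FPKM of 10 immediate-early genes, which respond quickly to stimulation, was 2839, 4386, 5442, 5519 and 6443 in WT microglia from 2 to 12 months and 3910, 6458, 3347, 5514 and 4536 in AD microglia. It was lowest at 2 months in WT and at 6 months in AD, as was Ccl3 within each genotype. Not every gene of the list followed this sum. In WT, Jun (543 FPKM) and Fosb (1.56) were lowest at 6 months. In AD, Fos (613), Ier2 (170) and Dusp1 (182) were lowest at 2 months and Fosb (1.22) at 12 months. The other genes of the list were lowest where the sum was. The heat shock genes Hspa1a and Hspa1b, set apart from that list after their values were seen, took another course in WT: their sum was 902, 521, 231, 295 and 726 FPKM in WT and 562, 459, 148, 375 and 274 FPKM in AD microglia, highest at 2 months in each. Across the 10 microglia groups the log2 value of the immediate-early sum had a Pearson correlation of 0.75 with Ccl2 and with Ccrl2, 0.80 with Ccl3 and with Ccl4, 0.62 with Ccl7, 0.43 with Ccl5, 0.39 with Ccl12 and -0.54 with Ccl9. These are descriptions over groups of 1 value each that share a size factor per group. The part of cell handling in these levels was not tested.

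Against WT of the same age, AD microglia differed in direction from age to age. At 2 months Ccl3, Ccl4 and Ccrl2 were higher in AD (0.67, 0.59 and 0.62 on the log2 scale), against 7.59% of genes. At 4 months Ccl5, Ccl9 and Ccrl2 were lower (-0.80, -0.57 and -0.50), against 8.14% of genes, the value of Ccrl2 lying at the threshold, its call lost in 4 of 6 other settings, and the AD group being one of 2 libraries. At 6 months 7 of the 8 genes were lower in AD, against 6.13% of genes, with a median of -0.82 for the 8 genes and -0.05 for all. Ccl2 and Ccl7 were lowest there (-1.92 and -1.82), followed by Ccrl2 (-1.03), Ccl4 (-0.90), Ccl3 (-0.74), Ccl5 (-0.66) and Ccl12 (-0.63), while Ccl9 was at 0.20.

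The summed FPKM of the immediate-early genes at 6 months was 3347 in AD and 5442 in WT, and that of 7 border macrophage markers 8.76 in AD and 16.3 in WT. Of the immediate-early genes only Dusp1 was higher in AD (433 against 419). Of the border macrophage sums Pf4 made 4.76 FPKM in AD and 10.6 in WT. Mrc1 (0.666 against 0.649) and Lyve1 (0.106 against 0.0838) were not lower in AD, and the other genes of that list were. The part of either list in the chemokine difference was not tested. At 9 months Ccl7 was lower in AD (-0.51), just past the threshold and lost in 4 of 6 other settings, against 7.43% of genes, while the other 7 genes lay within it.

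At 12 months the direction was the opposite one. Ccl9, Ccl12, Ccl5, Ccl4 and Ccl7 were higher in AD, with log2 values of 2.37, 1.07, 0.70, 0.59 and 0.52, against 25.7% of genes. Ccl9 was 62.0 FPKM in AD and 12.2 in WT, where the column is that of 2 libraries. Ccl2 (-0.30), Ccl3 (0.29) and Ccrl2 (-0.01) lay within the threshold. With quantile normalization instead of size factors, 2 genes were higher, Ccl5 and Ccl9, and 3 lower, Ccl2, Ccl3 (-0.628) and Ccrl2, and Ccl4 turned to -0.328. The direction of this group comparison at 12 months held under all scalings tried for Ccl5, Ccl7, Ccl9 and Ccl12 but not for Ccl3 and Ccl4. The call of Ccl7 was lost in 5 of 6 other settings (0.313 to 0.488), all but no filter, which could not lose a call. The AD 12-month group also had the highest sum of border macrophage markers, 19.6 FPKM against 7.72 in WT, none of the 7 being at 0 in either. The 7 neutrophil markers summed to 1562 FPKM there against 388 in WT, and the 5 monocyte markers to 42.2 against 10.2. Of the monocyte sums Chil3 made 27.8 FPKM in AD and 5.65 in WT. Ly6c2, Plac8 and Ms4a4c were also higher in AD, and Ccr2 was lower (1.41 against 1.60). In the AD 12-month group 9 T and NK cell markers summed to 14.5 FPKM, also the highest. Of this sum the NK receptor gene Klrd1 made 13.8, with Cd3g and Trbc2 at 0. Whether cells of these kinds carry part of the Ccl5, Ccl7 or Ccl12 levels was not tested.

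**Figure D2:**
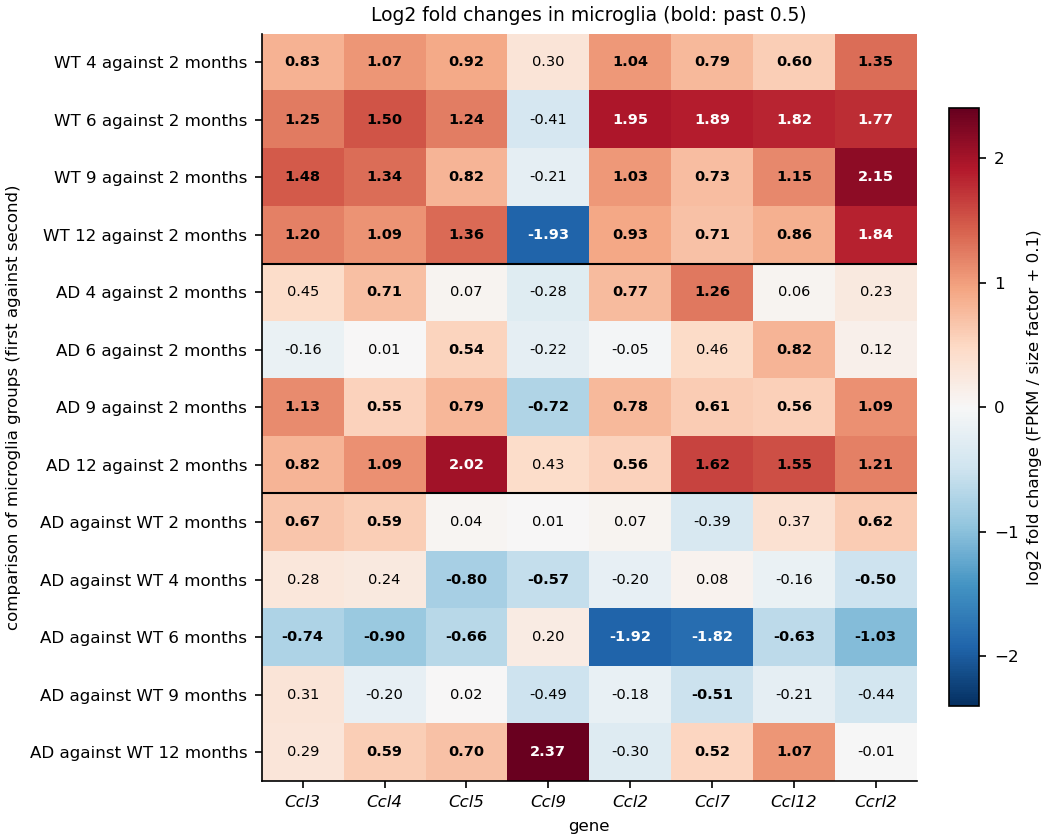
Log2 fold changes of the 8 genes (columns) in 13 comparisons of microglia groups (rows), with the value in each cell and values past 0.5 in bold; red is higher and blue lower in the group named first. The upper block holds WT against 2 months, the middle block AD against 2 months and the lower block AD against WT; Ccl9 is the exception in the upper block (-1.93 at 12 months) and 7 of 8 cells are blue past the threshold at 6 months in the lower block.

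The likeness of the courses was described by Pearson correlation of log2 values over the 10 microglia groups, with no test, since groups share size factors and sorting days are not given. The 7 genes other than Ccl9 correlated with each other at 0.49 to 0.88. The closest pairs were Ccl3 with Ccrl2 (0.88), Ccl3 with Ccl4 (0.87) and Ccl2 with Ccl7 (0.86). Ccl9 correlated with the other 7 at -0.30 to 0.04. Among 3394 genes of at least 5 FPKM on average and an SD of at least 0.3 on the log2 scale, the genes most like Ccl2 were Egr2, an immediate-early transcription factor gene (0.93), and Ier3 (0.90), followed by Ccl7 (0.86). For Ccl7 they were the unnamed models Gm10138 (0.91) and Gm28707 (0.88), and then Ccl2.

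Ccl12 was most like Ifi27l2a, an interferon-induced gene (0.96), Sat1 (0.96) and Gm10036 (0.95), and these were the highest likeness values of the 8 genes. Ccl4 was most like Gm14167 (0.93), the interleukin gene Il6 (0.91) and Zfp36 (0.88), whose protein shortens the life of cytokine transcripts. Ccl3 was most like the mitochondrial gene mt-Co3 (0.92), Id2 (0.90) and Gm10925 (0.90), and Ccrl2 like Snhg15 (0.91), Csmd3 (0.91) and Id2 (0.89). For Ccl5 the values were 0.88 for Rgs1, a regulator of chemokine receptor signaling, 0.87 for Rpl35a-ps6 and 0.86 for 2410006H16Rik. The closest genes to Ccl9 were C5ar2, a complement receptor (0.84), Vis1 (0.82) and Gm7879 (0.81).

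In astrocytes all 8 genes were below the microglial level. Every gene was higher in microglia by over 0.5 in each of the 10 pairs of genotype and age. That share of all genes was 35.6%, 36.2%, 37.2%, 37.2% and 37.5% in WT from 2 to 12 months and 34.8%, 32.8%, 35.1%, 38.3% and 35.5% in AD. The log2 difference was 9.92 to 11.14 for Ccl3, 9.80 to 13.04 for Ccl4 and 9.22 to 10.64 for Ccl12, but 1.19 to 3.06 for Ccl7, 1.76 to 3.60 for Ccl5, 2.14 to 5.0 for Ccl2 and 2.63 to 5.57 for Ccrl2. Ccl9 lay between, at 6.10 to 7.98. The pseudocount makes these differences smaller than those of FPKM itself for genes as low in astrocytes as Ccl5, Ccl9 and Ccl12.

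Set beside genes that mark microglia, the listed genes fell into parts. The astrocyte level of the 6 microglia markers was 0.0351% to 0.101% of the microglial level by their median and up to 0.600% by the highest of them. Ccl3 (0.0409% to 0.0997%), Ccl4 (0.00879% to 0.112%) and Ccl12 (0.0186% to 0.101%) lay in or below the range of these markers. Ccl2 (3.30% to 24.2%), Ccl7 (12.7% to 46.5%), Ccrl2 (2.23% to 16.4%) and Ccl5 (5.28% to 24.5%) exceeded the highest marker in all 10 pairs. For Ccl5 the astrocyte values were all under 0.5 FPKM and rest on 5 to 23 fragments per group. Ccl9 had 0.155% to 1.02%. The astrocyte libraries also held vessel transcripts, with 134 to 802 FPKM for 6 endothelial and 802 to 1693 FPKM for 6 mural cell markers, and the part of such cells in the chemokine levels was not tested.

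**Figure D3:**
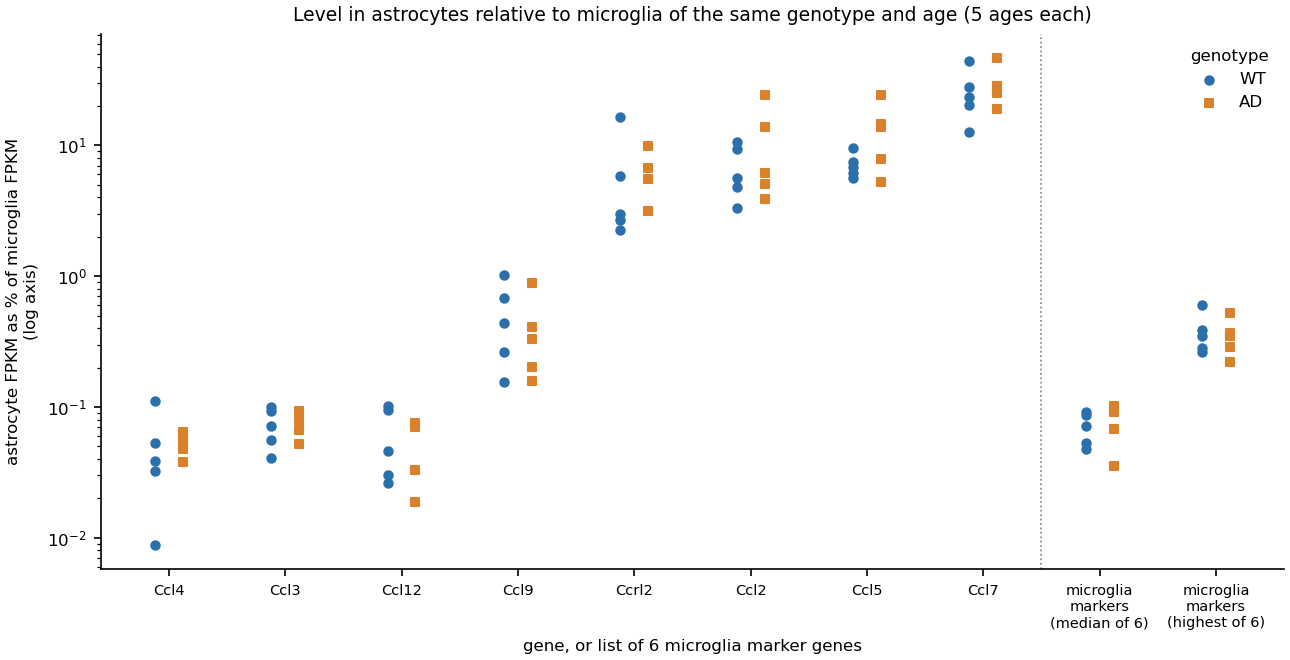
FPKM in astrocytes as a percent of FPKM in microglia of the same genotype and age (y axis, log scale), 5 ages for WT (circles) and 5 for AD (squares), for the 8 genes and, right of the dotted line, the median and the highest of 6 microglia marker genes. Ccl3, Ccl4 and Ccl12 lie at the level of the microglia markers, and Ccl2, Ccl5, Ccl7 and Ccrl2 above the highest marker. Ccl5 rests on at most 23 fragments per astrocyte group.

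Of the 8 genes 5 reached 0.5 FPKM in astrocytes. Ccrl2 was the highest of them in 6 of the 10 astrocyte groups, at 6.66, 6.33, 2.95, 4.92 and 4.37 FPKM in WT astrocytes from 2 to 12 months and 6.26, 4.24, 4.43, 4.49 and 4.43 FPKM in AD astrocytes. Ccl2 was 1.02, 4.34, 2.61, 2.50 and 4.30 FPKM in WT and 1.41, 1.58, 5.15, 2.12 and 4.44 FPKM in AD astrocytes. Ccl7 was 1.32, 3.28, 2.95, 2.56 and 4.71 FPKM in WT and 1.44, 2.37, 3.09, 2.31 and 3.80 FPKM in AD astrocytes. For both chemoattractants the 2-month group was the lowest in each genotype, while Ccrl2 was highest at 2 months in each.

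Ccl3 stayed within 0.658 to 1.96 FPKM in astrocytes and Ccl4 within 0.265 to 2.89 FPKM. Ccl5 (0.0877 to 0.395 FPKM), Ccl9 (0.0483 to 0.347) and Ccl12 (0.0348 to 0.365) did not reach 0.5 FPKM in any astrocyte group and were left out of comparisons within astrocytes. The Ccl12 values rest on 1 to 12 fragments per group and those of Ccl5 on 5 to 23. Ccl4 was under 0.5 FPKM in WT astrocytes at 2 months (0.384 FPKM, 15 fragments) and at 9 months (0.265 FPKM, 11 fragments), so that it entered comparisons with these groups only through the other, higher group.

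**Figure D4:**
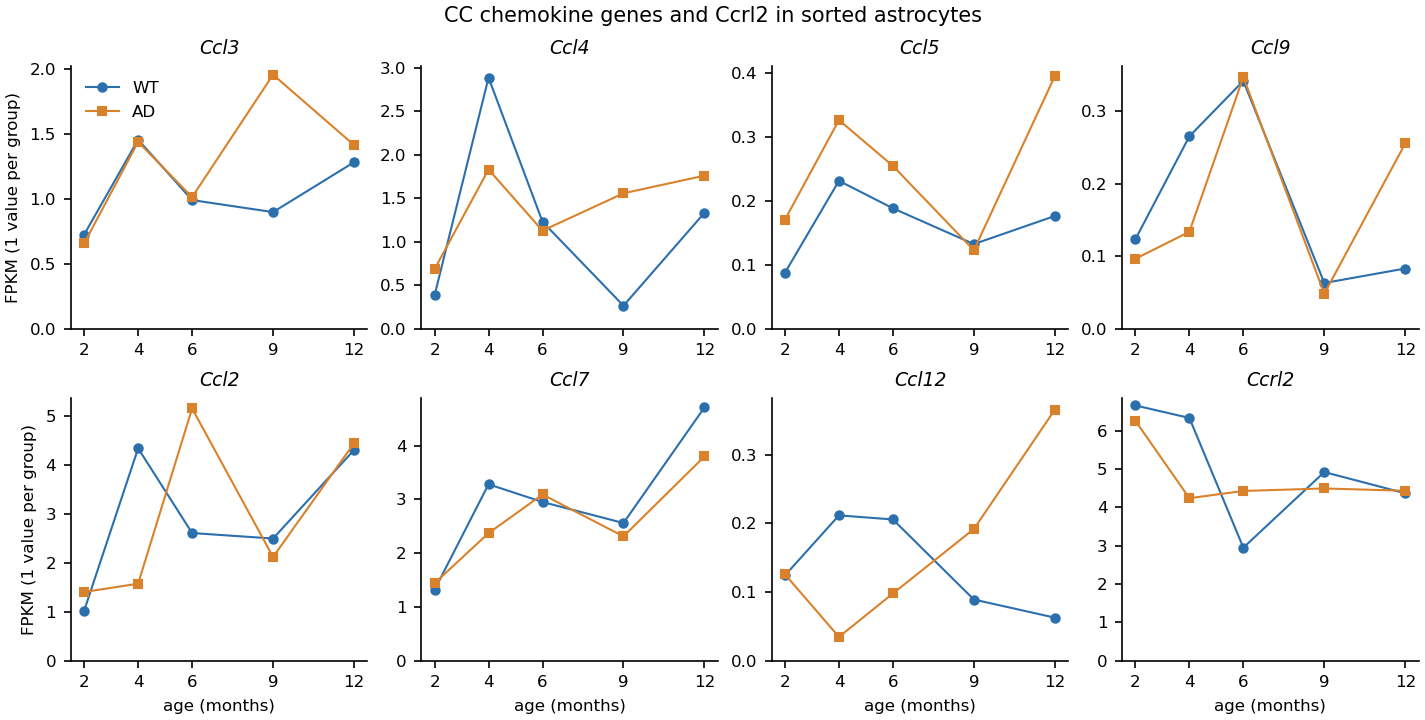
FPKM in astrocytes (y axis, from 0, 1 deposited value per group, scales differ between panels) against age in months (x axis) for the 7 CC ligands and Ccrl2, WT as circles and AD as squares. Ccl2 and Ccl7 are lowest at 2 months in both genotypes, Ccrl2 is highest there, and Ccl5, Ccl9 and Ccl12 stay under 0.5 FPKM.

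Over age, Ccl2 and Ccl7 were higher in WT astrocytes at all 4 later ages than at 2 months, as were 2.82% of 14914 genes. Their log2 fold changes were 1.97 and 1.24 at 4, 1.33 and 1.17 at 6, 1.18 and 0.88 at 9, and 1.95 and 1.74 at 12 months. Ccl4, kept through the later groups alone, was higher at 4, 6 and 12 months (2.62, 1.52 and 1.55) and Ccl3 at 4 and 12 months (0.91 and 0.72). The share of genes kept that were higher was 12.9% at 4, 28.0% at 6, 12.1% at 9 and 16.2% at 12 months. Of the 8 genes 4, 3, 2 and 4 were higher, but Ccl5, Ccl9 and Ccl12 were never kept and Ccl4 not at 9 months. Ccl4, under 0.5 FPKM at 2 months, could be kept only where a later group was higher. Its calls, counted at 4, 6 and 12 months, thus lean on the filter and cannot be set against these shares. Ccrl2 was lower at 6 months (-1.08), at a background of 26.2%, and at 12 months (-0.62), at a background of 14.2%. The 6 microglia markers summed to 6.56, 11.5, 10.3, 5.52 and 8.58 FPKM in WT astrocytes from 2 to 12 months. The part of microglial transcripts in the Ccl3 and Ccl4 values was not tested.

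In AD astrocytes Ccl3, Ccl4 and Ccl7 were higher at all 4 later ages, as were 2.21% of 14970 genes. With a pseudocount of 1, or with a trend in gene length removed, 0 of the 8 were. At 4 months these 3 were the genes called higher, against 13.2% of genes, and Ccrl2 was lower (-0.60), against 7.16%. Ccl2 joined them at 6 months (1.85), where the background was 17.9%, at 9 months (0.53), where it was 12.7%, and at 12 months (1.60), where it was 18.7%. The AD 2-month values of Ccl3 and Ccl4 rest on 30 and 27 fragments. The 6 microglia markers summed to 5.85, 8.29, 9.39, 6.63 and 9.12 FPKM in AD astrocytes from 2 to 12 months, also lowest at 2 months. The part of microglial transcripts in the Ccl3 and Ccl4 values was not tested. Against WT, AD astrocytes had more Ccl4 at 2 months (0.68), kept through the AD group alone. This call leans on the filter and cannot be set against the share of all genes (6.18%). It was lost with a pseudocount of 1 (0.274). At 4 months Ccl2 (-1.47), Ccl4 (-0.70), Ccrl2 (-0.64) and Ccl7 (-0.52) were lower in AD, at a background of 8.95%.

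At 6 months Ccl2 (0.91) and Ccrl2 (0.53) were higher in AD astrocytes, against 9.40% of genes. At 9 months Ccl3 (1.02) was higher, against 8.42%. Ccl4 was also higher at 9 months (2.16), but it was kept through the AD group alone and cannot be set against that share. At 12 months 0 of the 5 genes kept passed the threshold in either direction, by the fold alone and with no test. At 6 months Ccl2 was thus lower in AD than in WT in microglia and higher in AD in astrocytes, and this difference between cell types was not tested.

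The rest of the CC system was read from lists of named genes. Of 13 other CC ligands 6 reached 0.5 FPKM in a microglia group and 7 in an astrocyte group. Ccl6, a ligand of Ccr1 in the mouse, was the most abundant of them, at 147, 136, 181, 233 and 86.1 FPKM in WT and 113, 156, 298, 286 and 754 FPKM in AD microglia. At 12 months it stood with Ccl9, the log2 difference of AD against WT being 3.16 for Ccl6 and 2.37 for Ccl9. Ccl8, another monocyte chemoattractant, was 0.0377 FPKM in WT and 0.0407 in AD microglia at 2 months and 12.7 FPKM in AD at 12 months, the highest of its values. Ccl24, a ligand of Ccr3, was 4.55 to 11.5 FPKM in microglia and at most 0.0261 in astrocytes. Ccl25 was 0.410 to 1.01 FPKM in microglia.

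Of 9 CC receptors read, 4 reached 0.5 FPKM in a microglia group and 0 in an astrocyte group. Ccr6, the receptor of Ccl20, was 62.0 to 373 FPKM, lowest in WT at 6 months. Ccr1, the receptor of Ccl3, Ccl5 and Ccl9, was 9.15, 4.19, 3.86, 5.72 and 3.13 FPKM in WT microglia and 8.76, 6.10, 3.18, 1.56 and 4.02 FPKM in AD microglia. It was thus lower than at 2 months at each later age in both genotypes, by over 0.5 on the log2 scale in all 8 comparisons. Of all genes 8.03%, 25.3%, 6.58% and 11.3% were lower in WT and 10.5%, 22.3%, 14.1% and 22.6% in AD. The AD 4-month value of Ccr1 was -0.55, in a group of 2 libraries, and other settings were not run for Ccr1. In the same comparisons 7, 7, 7, 7 and 3, 2, 7, 7 of the 8 genes of the chemokine list were higher. Of all genes 12.9%, 26.9%, 13.8%, 15.3% and 22.4%, 22.8%, 23.4%, 24.6% were. Ccr2, the receptor of Ccl2, Ccl7 and Ccl12 and a monocyte marker, was 0.934 to 1.60 FPKM.

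Chemerin and its receptors were divided between the cell types. Cmklr1, to which Ccrl2 presents chemerin, was 7.55 to 32.2 FPKM in microglia. It was highest in WT at 2 months, where Ccrl2 was lowest, but 28.4 FPKM in WT at 9 months, where Ccrl2 was highest. In AD microglia Cmklr1 was 15.1 FPKM at 2 and 24.5 at 9 months. Rarres2, the chemerin gene, was 19.9 to 81.8 FPKM in astrocytes and 0.278 to 3.39 in microglia. Of the atypical receptors, which bind chemokines without classical signaling, Ackr3 was 14.9 to 25.9 FPKM in astrocytes and 0.292 to 5.0 in microglia, and Ackr1, a chemokine-binding receptor of venules and red cells, 0.260 to 1.74 FPKM in astrocytes. In microglia both Rarres2 and Ackr3 were highest in AD at 4 months. That group had the highest sums of endothelial (146 FPKM), mural cell (202) and astrocyte markers (30.7), whose part in these levels was not tested.

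**Figure D5:**
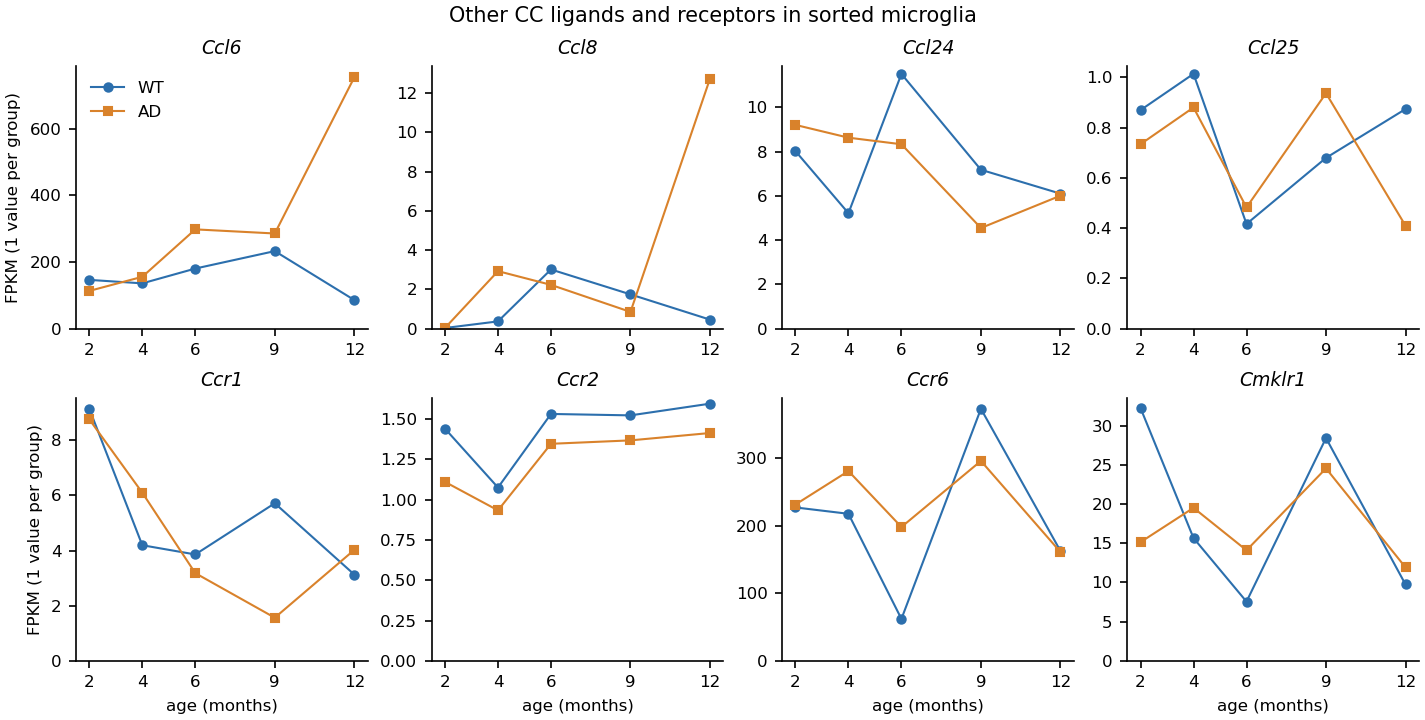
FPKM in microglia (y axis, from 0, 1 deposited value per group) against age in months (x axis) for 4 other CC ligands, 3 CC receptors and the chemerin receptor Cmklr1, WT as circles and AD as squares. Ccl6 stands out at 754 FPKM in AD at 12 months, and Ccr1 is highest at 2 months in both genotypes.

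Some limits touch single members. Most of the genes are short in exon length, from 537 bases for Ccl12 to 1138 for Ccl2. The median over the genes that reached 0.5 FPKM in microglia was 3077, and Ccrl2 (2598) and Ccl9 (3045) lay nearer to it. A trend in length between groups can thus bear on the short genes. With such a trend removed, 6 rather than 7 genes were higher at all later ages in WT microglia, Ccl12 falling to 0.455 at 4 months, and 4 rather than 7 were higher at 9 months in AD microglia. Ccl2, Ccl7 and Ccl12, and Ccl3 and Ccl4, are close relatives in sequence, and how reads that fit more than one gene were counted is not given in the sources used here.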

How the data were processed

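RNA of sorted glia of both genotypes and 5 ages was sequenced from SMART-Seq v4 libraries. The authors deposited a table of FPKM with 1 column per group. Their methods name HISAT2 and featureCounts and their processing notes Bowtie 0.12.2 and the build mm8, while gene lengths that turn FPKM into whole-fragment steps are those of GENCODE M21. Between 95.0% and 97.7% of single-fragment values of a group lay on its steps. No genome position of the table is printed. Columns were matched to groups by their names, and each is taken as the authors' value over its libraries. How replicates were combined is not given in the sources used here. The depths and fragment counts by steps take each column as the mean FPKM of its libraries.

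Each column was scaled by its median-of-ratios size factor (0.950 to 1.07 in microglia, from 18974 genes above 0 in all 10 groups, and 0.955 to 1.05 in astrocytes, from 22232). A pseudocount of 0.1 preceded the log2 transform. Genes with 0.5 FPKM or more in either group were kept, and 0.5 on the log2 scale was the threshold. Size factors over all 20 groups served microglia against astrocytes. limma was planned for values per library and was not run, since the table has group values, so no p-value is given. Symbols and lengths were found for 35882 of 35999 genes. The members and gene lists were chosen with earlier results of these data known. Named genes are the 8 members, the list genes of at least 1 FPKM in a group and the 3 genes most like each member. The list genes Ccl11 and Ccl27a are in the closing section, and 1 list gene is not reported here. Alternatives were FPKM as deposited, quantile normalization, size factors set on genes with 1 FPKM or more in every group, a pseudocount of 1, no filter, other reference ages and no 6-month groups. Removal of a length trend (polynomial of degree 3) and leaving out groups of 2 libraries were added after seeing the data. The fold calls were tested on simulated data. Tools were Python 3.11.15, NumPy 2.4.6, pandas 2.3.3 and, for plots, Matplotlib 3.10.9. Whole-brain samples were not analysed here.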

Additional observations from a re-analysis of the deposited data

How the results depend on the processing

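Each fold change of a member over age or between genotypes was recomputed under 6 other settings. Of 1008 such values 940 stayed on their side of the threshold, 50 no longer passed it, 16 newly passed it and 2 changed sign while past it before or after, those of Ccl3 and Ccl4 in AD against WT microglia at 12 months (-0.628 and -0.328 with quantile normalization). A further 22 changed sign within the threshold. The setting of no filter leaves every fold change as it is, so its 103 values over age and 65 between genotypes could only stay the same. Of single calls, 7 were lost in 3 or more of the 6 settings: Ccl7 in AD against WT microglia at 9 and 12 months and astrocytes at 4 months, Ccrl2 in AD against WT microglia at 4 months, Ccl5 at 6 and Ccl2 at 12 months in AD microglia, and Ccl2 at 9 months in AD astrocytes. All 8 genes remained higher in microglia than in astrocytes in all 10 pairs under each of the 6 settings. Over all genes, size factors set on genes with 1 FPKM or more moved the median log2 fold change by over 0.1 in 9 of 26 comparisons, most in WT microglia at 6 months, from 0.11 to -0.11. The share of higher among all calls moved by over 10 points in 12 comparisons under these size factors, in 3 with quantile normalization and in 1 as deposited. With these size factors it went, against 2 months, from 61.6% to 73.6% at 4 and from 51.5% to 31.9% at 6 months in WT microglia, and in AD microglia from 68.1% to 80.4% at 4, 50.5% to 33.1% at 6, 62.4% to 76.3% at 9 and 52.1% to 39.3% at 12 months. In astrocytes it went from 51.7% to 40.5% in WT at 6 months, and in AD from 64.8% to 76.9% at 4, 50.0% to 39.0% at 6 and 55.4% to 67.8% at 9 months. For AD against WT at 9 months it went from 62.3% to 78.9% in microglia (74.2% as deposited) and from 60.05% to 73.7% in astrocytes. Quantile normalization moved it from 67.7% to 57.0% in WT microglia at 9 months, and at 4 months from 68.1% to 53.5% in AD microglia and from 68.5% to 53.3% for AD against WT.

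In WT microglia at 6 months 1 gene (Ccl9) was lower with quantile normalization, with size factors set on genes with 1 FPKM or more and with the length trend removed, against 0. In AD microglia at 6 months 1 gene rather than 2 was higher under each of these 3, as deposited and with a pseudocount of 1, and with quantile normalization 2 were lower. At 9 months in AD 4 rather than 7 were higher with the length trend removed. For AD against WT microglia, quantile normalization gave 1 gene higher (Ccl3) at 4 months and at 9 months, and at 12 months 2 higher and 3 lower. Size factors set on genes with 1 FPKM or more gave 3 higher at 12 months rather than 5. The 1 gene lower at 9 months (Ccl7) became 0 as deposited, with quantile normalization, with these size factors and with a pseudocount of 1.

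In astrocytes, where values are low, no filter gave 5 genes higher in WT at 6 months rather than 3, 2 lower in AD at 4 months rather than 1, and 7 higher in AD at 12 months rather than 4. It also gave, for AD against WT, 2 higher at 2 months, 1 lower at 6 months and 3 higher at 12 months, rather than 1, 0 and 0. A pseudocount of 1 gave 2 higher rather than 4 in AD at 6 and at 9 months, and for AD against WT 0 rather than 1 at 2 months and 1 rather than 2 at 6 months. With the length trend removed 2 were higher in AD at 6 months, and 1 (Ccrl2) was lower in AD at 6 and at 12 months, as with size factors set on genes with 1 FPKM or more.

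The count of genes higher at all later ages in AD microglia, 0, was 3 without 6 months and 2 without the group of 2 libraries. In AD astrocytes it was 0 rather than 3 with a pseudocount of 1 and with the length trend removed. With 4, 6 or 9 months as the reference age it was 0 in WT microglia, with 12 months 1, and in WT and AD astrocytes 0 with each of these 4 ages, which for genes higher than at 2 months throughout follows from those calls and is no separate check. Causes of these shifts were not tested. No paired analysis was possible because the table holds 1 value per group, and for the same reason leaving out single libraries was not run. In astrocytes Ccl5 and Ccl12 rest on at most 23 fragments a group.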

Other observations

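Other CC ligands of the list were found on the astrocyte side. Ccl11, an eosinophil attractant, was 1.90, 3.31, 2.00, 3.85 and 8.14 FPKM in WT astrocytes from 2 to 12 months and 2.92, 1.21, 2.10, 3.58 and 5.70 FPKM in AD astrocytes, against at most 0.291 in microglia. Ccl27a, a ligand of Ccr10, was 0.856 to 2.77 FPKM in astrocytes, lowest in WT at 2 months and highest in AD at 12 months, and 0.439 to 0.959 in microglia. The summed FPKM of 6 mural cell markers was 802 to 1693 over the same astrocyte groups, and the part of vessel cells in these levels was not tested.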
